A study of Mus musculus with 63 samples.

Results

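The genes described here are those of mitochondrial complex I that carry an Nduf name, the nuclear-encoded subunits and assembly factors of the enzyme. They were chosen by symbol: all 45 genes whose symbol starts with Nduf, of 23429 genes in the deposited count table. They were measured by sequencing of polyadenylated RNA in 63 libraries of hearts from mice of the FVB/N strain background. The hearts were taken at postnatal day 1 (P1), at postnatal day 21 (P21) or at 5 weeks. Mfn2AA hearts overexpressed human mitofusin 2 with the substitutions T111A and S442A, Mfn2wt hearts overexpressed the normal human protein, tet-off hearts were labelled as the tet-off control, and the remaining hearts were nontransgenic. Mitofusin 2 sits in the outer membrane of mitochondria and joins them to each other, and its phosphorylated form is a docking site for Parkin in the clearance of damaged mitochondria. Mfn2AA hearts gave 3 libraries at P1, 6 at P21 and 4 at 5 weeks, and Mfn2wt hearts 4, 6 and 4. Tet-off hearts gave 5, 5 and 3, and nontransgenic hearts 6, 6 and 4. A further 3 nontransgenic P21 and 4 nontransgenic 5-week libraries were prepared in the same batch as the P1 libraries. The labels used here name no promoter for the transgenes and no other allele.

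Complex I oxidises NADH, passes the electrons to ubiquinone and pumps protons across the inner mitochondrial membrane. It is assembled from subunits of the nuclear and of the mitochondrial genome, in modules that are built separately and then joined, with help from assembly factors that are absent from the finished enzyme. The heart depends on it for most of its ATP, and in the mouse the myocardium turns from glucose toward fatty acids as fuel in the weeks after birth. The 45 genes were grouped by their place in the enzyme. There were 10 genes of the module that oxidises NADH, 6 of the module that reduces ubiquinone, 9 of the proximal and 11 of the distal part of the membrane arm, and 7 assembly factors. The other 2 were Ndufa4, whose product is now counted with complex IV, and its paralogue Ndufa4l2, which is induced in hypoxia.

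Promoter sequences are shown because many of these genes moved together in the results that follow. RefSeq promoter entries (build GRCm38.p6) matched 39 of the 45 genes. Motifs were searched on both strands in the 250 bases before each start, for these genes and for all 27025 genes with an entry. The NRF1 motif GCATGCGC was found in 4 of the 39 promoters (10.3%), those of Ndufa11, Ndufa6, Ndufa8 and Ndufaf4, and in 2.56% of all promoters. The ERR motif AAGGTCA was found in 3 (7.69%), those of Ndufb2, Ndufb4 and Ndufs5, and in 4.70% of all promoters. The ETS motif CCGGAAG, the core bound by GABP, was found in 4 (10.3%), those of Ndufaf1, Ndufb6, Ndufb7 and Ndufs3, and in 7.83% of all. The YY1 motif AANATGG was found in 7 (17.9%) and in 14.1% of all, and the GC box GGGCGG in 18 (46.2%) and in 35.4% of all. The 120 bases before the start are given below for 1 gene with each of the first 3 motifs and for Ndufs6, which had the greatest fall in Mfn2AA hearts and none of the 5 motifs in this stretch. All 4 genes lie on the minus strand, and capitals mark the motifs or their reverse complements. The stretches lie at chr2:36049339-36049458 (Ndufa8, a GC box and the NRF1 motif), chr16:37654369-37654488 (Ndufb4, a GC box and the ERR motif), chr2:90904722-90904841 (Ndufs3, GC boxes and the ETS motif, of which the second GC box and the ETS motif overlap) and chr13:73328483-73328602 (Ndufs6).
Ndufa8: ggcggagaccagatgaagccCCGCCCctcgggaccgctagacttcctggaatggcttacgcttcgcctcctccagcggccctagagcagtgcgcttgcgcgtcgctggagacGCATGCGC
Ndufb4: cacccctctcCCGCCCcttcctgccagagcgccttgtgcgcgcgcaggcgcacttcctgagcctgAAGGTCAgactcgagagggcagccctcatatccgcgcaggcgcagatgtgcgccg
Ndufs3: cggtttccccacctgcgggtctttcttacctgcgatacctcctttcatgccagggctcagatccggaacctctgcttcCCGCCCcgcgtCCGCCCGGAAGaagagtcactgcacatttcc
Ndufs6: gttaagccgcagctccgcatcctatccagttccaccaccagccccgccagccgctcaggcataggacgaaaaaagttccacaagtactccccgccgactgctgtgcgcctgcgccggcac

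Depth was 4557894 to 14844064 counts in the 25 libraries of the P1 batch, 5292335 to 24339146 in the 23 of the P21 batch and 7396727 to 23732780 in the 15 of the 5-week batch. Age and library batch are the same split for the genotype groups, so the main comparison of ages used nontransgenic libraries of the P1 batch. The human transgene had 336 to 851 FPKM (fragments per length and depth, the authors' values) in Mfn2AA and 1232 to 1745 FPKM in Mfn2wt hearts at 5 weeks, against at most 190 FPKM in the tet-off and 20.02 in the nontransgenic libraries of that batch. At P21 it had 1834 to 8051 FPKM in Mfn2AA and 1405 to 1796 in Mfn2wt hearts, and at P1 1878 to 2438 in Mfn2AA and 264 to 494 in Mfn2wt hearts. The substitutions and the transgene level therefore cannot be told apart in Mfn2AA against Mfn2wt. Controls were not free of transgene reads. The highest tet-off library had 362 FPKM at P21 and 155 at P1, and the highest nontransgenic library of those ages' own batches 52.1 and 97.6. Among the 5-week nontransgenic libraries of the P1 batch the highest had 177 FPKM. The ribosomal repeat Rn45s took 34.4% and 17.6% of the counts in Mfn2wt replicates 1 and 3 at 5 weeks, against at most 8.72% in the other libraries of that age's batch. Tissue is labelled whole heart at P1 and left ventricle later, while the extraction protocol names ventricular apexes. Markers of ventricular cardiomyocytes were abundant in all groups described here. In RNA of a whole tissue piece, fewer cells of a type and less RNA per cell cannot be told apart.

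Of the 45 genes, 44 had counts and passed the filter on low counts in all fits. The exception was Ndufs5 (chromosome 4, 123712710 to 123718186, build mm10), a subunit of the proximal membrane arm, with 0 counts in all 63 libraries. In the deposited annotation, 95.1% of its exon bases are shared with the gene BC002163, and reads that fall on more than 1 gene cannot be assigned by such counting. Its FPKM, from a method that assigns such reads, are given beside the counted genes. Smaller overlaps affected Ndufa13, with 27.5% of its exon bases shared with Tssk6, Ndufs1 (8.5%, Gm11602), Ndufb11 (7.3%, Rbm10), Ndufa2 (4.9%, Tmco6) and Ndufa4l2 (3.5%, Shmt2). Libraries carried no strand information, so reads of these pairs cannot be told apart within the shared bases.

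Levels of different genes were compared per transcript length, as the authors' FPKM, in the 4 nontransgenic 5-week libraries of the P1 batch. Subunits stood far above assembly factors. Ndufa3, an accessory subunit of the proximal membrane arm, had the highest level, 3118 ± 358 FPKM (SD, n = 4). Ndufa4 followed with 2116, Ndufs6, a zinc-binding subunit of the NADH-oxidising module, with 1948, Ndufv3 with 1859 and Ndufb9 with 1544. The lowest subunits were Ndufs1, which carries iron-sulfur clusters, with 197 FPKM, Ndufab1, the mitochondrial acyl carrier protein, with 173, Ndufc2 with 150, Ndufa11 with 126 and Ndufs4 with 103. All 7 assembly factors lay below them, with Ndufaf2 highest at 38.4 FPKM and Ndufaf5 lowest at 5.59 ± 0.197 (SD, n = 4). Ndufa4l2, at 24.9 FPKM, lay among the assembly factors and far below its paralogue Ndufa4. Values per length depend on the annotated transcripts, so subunits of similar FPKM are not ranked further.

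The first question was whether these genes differ between Mfn2AA and Mfn2wt hearts at 5 weeks. Nearly the whole set was lower in Mfn2AA hearts. A total of 35 of the 44 genes tested fell and 0 rose (edgeR quasi-likelihood test, Benjamini-Hochberg adjusted p under 0.05, n = 4 and 4), where 18.2% of all 13661 genes tested fell. Their median log2 fold change was -0.88, with a range of -1.62 to 0.38, and that of all genes tested was 0.03. In 33 of the 44, every Mfn2AA library lay below every Mfn2wt library, as did 16.4% of all genes tested. By module, 10 of 10 genes of the NADH-oxidising module fell, 5 of 6 of the ubiquinone-reducing module, 8 of 8 tested of the proximal and 8 of 11 of the distal membrane arm, 3 of 7 assembly factors, and 1 of the other 2.

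**Figure D1:**
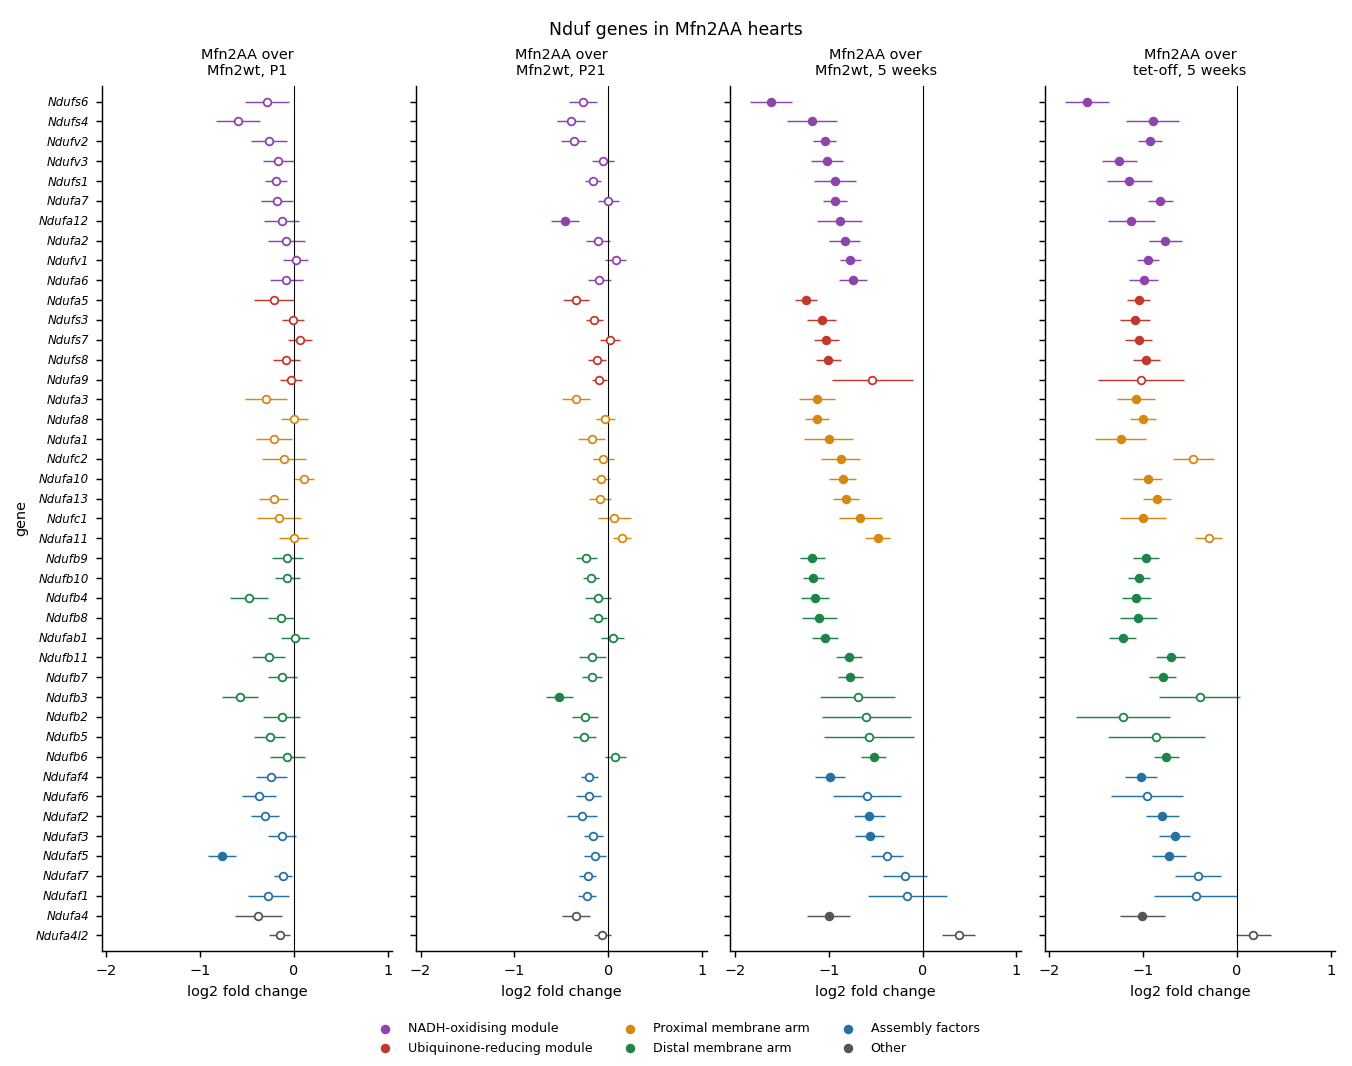
Log2 fold change (x axis, bars are standard errors) of 43 of the 44 Nduf genes tested, in Mfn2AA over Mfn2wt hearts at P1, P21 and 5 weeks and in Mfn2AA over tet-off hearts at 5 weeks. Filled points passed an adjusted p of 0.05: of those drawn, 1 gene at P1, 2 at P21, and 34 against Mfn2wt and 33 against tet-off at 5 weeks, all lower in Mfn2AA.

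The NADH-oxidising module is the part of the enzyme that binds NADH and its flavin. Its median log2 fold change was -0.93 (range -1.62 to -0.74). Levels of a gene in single libraries are given as CPM, its counts scaled to library size. Ndufs6 (chromosome 13, 73319876 to 73328482), whose promoter stretch is printed above, had 544, 415, 516 and 375 CPM in the Mfn2AA libraries, against 1274, 1080, 1285 and 2023 CPM in the Mfn2wt libraries. No Mfn2AA library came near the lowest Mfn2wt library, and Mfn2wt replicate 4 stood well above the other Mfn2wt libraries. The fold change was -1.62 ± 0.22 (log2, SE), with adjusted p = 5.58e-05. Ndufv1 (chromosome 19, 4007505 to 4012725), the subunit that holds the flavin and binds NADH, had 347, 461, 419 and 380 CPM in Mfn2AA and 664, 717, 672 and 682 CPM in Mfn2wt libraries. The groups were far apart and each was narrow. Its fold change was -0.77 ± 0.11, with adjusted p = 6.37e-05. Ndufv2 (chromosome 17, 66078795 to 66101491), which holds an iron-sulfur cluster beside it, had 197, 191, 254 and 176 CPM in Mfn2AA and 387, 401, 422 and 470 CPM in Mfn2wt libraries. It fell by 1.04 ± 0.12, with adjusted p = 1.40e-05. These groups did not overlap either.

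The electrons then pass along iron-sulfur clusters of Ndufs1 (chromosome 1, 63143592 to 63176822). It had 99.6, 127, 185 and 157 CPM in Mfn2AA and 234, 357, 272 and 221 CPM in Mfn2wt libraries. The groups did not overlap, although the highest Mfn2AA library lay close to the lowest Mfn2wt library. The change was -0.93 ± 0.23, with adjusted p = 0.00440. Ndufs4 (chromosome 13, 114287795 to 114388094), an accessory subunit whose loss in mice causes a Leigh-like disease, had 27.5, 26.3, 57.2 and 34.6 CPM in Mfn2AA and 65.1, 99.3, 65.5 and 98.0 CPM in Mfn2wt libraries. All Mfn2AA libraries were lower, replicate 3 least so. Its change was -1.18 ± 0.27, with adjusted p = 0.00273. Ndufv3, Ndufa7, Ndufa12, Ndufa2 and Ndufa6 also fell, by 1.02, 0.93, 0.88, 0.83 and 0.74 on the log2 scale.

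**Figure D2:**
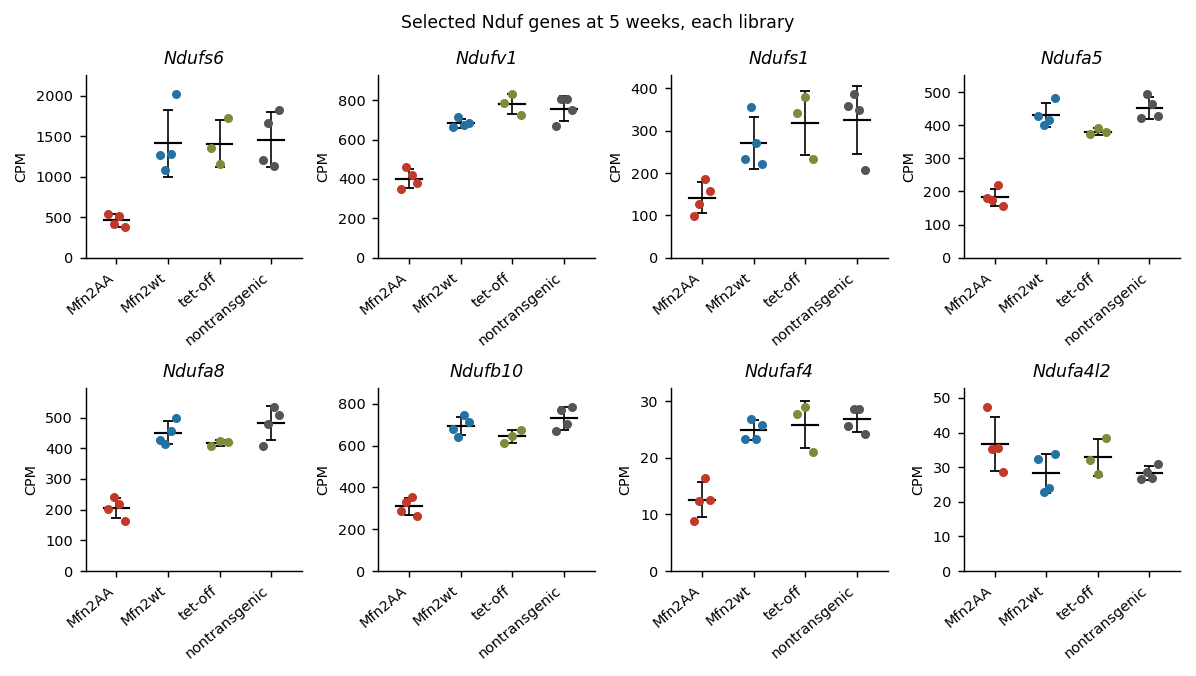
Levels in CPM (y axes, from 0) of 8 Nduf genes in each library at 5 weeks, with the mean and SD of each group of 3 or 4 libraries. For the first 7 genes the Mfn2AA libraries lie below all Mfn2wt and tet-off libraries; for Ndufa4l2 the groups overlap.

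In the module that reduces ubiquinone the median log2 fold change was -1.02 (range -1.24 to -0.54). Ndufa5 (chromosome 6, 24518666 to 24527687), an accessory subunit, had the smallest adjusted p of the set, 2.18e-06. It had 179, 175, 218 and 157 CPM in Mfn2AA against 426, 399, 416 and 482 CPM in Mfn2wt libraries, a change of -1.24 ± 0.11. The groups were far apart. Ndufs7 (chromosome 10, 80249452 to 80256792), which holds the last iron-sulfur cluster before ubiquinone, had 304, 324, 348 and 259 CPM in Mfn2AA and 647, 569, 616 and 681 CPM in Mfn2wt libraries. Its change was -1.03 ± 0.13, with adjusted p = 3.26e-05. Ndufs3 and Ndufs8, core subunits beside it, fell by 1.07 and 1.004. Ndufa9 was the only gene of the module that did not pass, at -0.54 ± 0.43 (adjusted p = 0.359). It varied widely within groups, with 63.7, 88.5, 200 and 152 CPM in Mfn2AA and 110, 305, 168 and 145 CPM in Mfn2wt libraries.

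The 8 tested genes of the proximal membrane arm, which anchors the peripheral arm and holds mitochondrially encoded subunits, had a median of -0.86 (range -1.13 to -0.48). Ndufa8 (chromosome 2, 36036334 to 36049292), a subunit facing the intermembrane space, had 203, 241, 217 and 164 CPM in Mfn2AA and 428, 415, 458 and 499 CPM in Mfn2wt libraries. These groups were well apart. The change was -1.13 ± 0.13, with adjusted p = 1.13e-05. Ndufa3, the gene with the highest level per length, also changed by -1.13, and Ndufa13, known as well as GRIM-19, by -0.81. The smallest fall that passed was that of Ndufa11, -0.48 ± 0.14 (adjusted p = 0.0111). Ndufc1 passed at adjusted p = 0.0313 although its groups overlapped, with 80.1, 41.8, 89.4 and 42.9 CPM in Mfn2AA and 68.9, 116, 96.9 and 120 CPM in Mfn2wt libraries. It lost the call in 8 of 16 alternatives. Ndufs5, which has no counts, had 176, 221, 290 and 214 FPKM in Mfn2AA and 211, 362, 289 and 361 FPKM in Mfn2wt libraries. These overlapped, and limma on log2(FPKM + 1) gave -0.43 ± 0.19, which did not pass (adjusted p = 0.0849).

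In the distal membrane arm the median was -0.79 (range -1.18 to -0.52). Ndufb10 (chromosome 17, 24722067 to 24724388), a subunit facing the intermembrane space, had 289, 331, 355 and 264 CPM in Mfn2AA and 680, 641, 745 and 711 CPM in Mfn2wt libraries. Each Mfn2wt library had well over the highest Mfn2AA value. The change was -1.17 ± 0.11, with adjusted p = 3.24e-06. Ndufb9 and Ndufb4 fell as far, by 1.18 and 1.15, Ndufb8 by 1.10 and Ndufab1 by 1.04. Ndufb11, Ndufb7 and Ndufb6 fell by 0.79, 0.77 and 0.52. The 3 that did not pass were Ndufb3 (-0.69 ± 0.40), Ndufb2 (-0.60 ± 0.47) and Ndufb5 (-0.58 ± 0.48), whose standard errors were large. Ndufb5 had 68.3, 125, 233 and 159 CPM in Mfn2AA and 72.8, 324, 262 and 211 CPM in Mfn2wt libraries.

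Assembly factors had a median of -0.56 (range -0.99 to -0.17). Ndufaf4 (chromosome 4, 24898083 to 24905001), which works with Ndufaf3 on the ubiquinone-reducing module, had 8.88, 12.4, 16.5 and 12.5 CPM in Mfn2AA and 23.4, 26.9, 23.4 and 25.8 CPM in Mfn2wt libraries. The groups were apart, as for the subunits. The change was -0.99 ± 0.16, with adjusted p = 0.000201. Ndufaf2, a late factor related to Ndufa12, changed by -0.57 and Ndufaf3 by -0.56. Ndufaf6, Ndufaf5, the enzyme that hydroxylates Ndufs7, Ndufaf7, a methyltransferase, and Ndufaf1 did not pass, at -0.59, -0.38, -0.19 and -0.17.

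Ndufa4 (chromosome 6, 11900373 to 11907446) had 234, 232, 442 and 294 CPM in Mfn2AA and 457, 614, 571 and 756 CPM in Mfn2wt libraries, and changed by -0.999 ± 0.23 (adjusted p = 0.00282). Its paralogue Ndufa4l2 (chromosome 10, 127514939 to 127517156) was the only gene of the set with a positive value. It had 47.2, 35.1, 35.5 and 28.6 CPM in Mfn2AA and 32.2, 22.8, 23.9 and 33.9 CPM in Mfn2wt libraries. These groups overlapped, and 0.38 ± 0.17 did not pass (adjusted p = 0.0957). On the FPKM scale the same difference passed, at 0.76 (limma, adjusted p = 0.000921), but there the median of all genes tested was itself 0.33.

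Across the 44 genes, the log2 fold change of Mfn2AA over Mfn2wt was more negative where the log2 level in Mfn2wt hearts was higher (Pearson r = -0.67, Spearman rho = -0.58). This is a description across genes, which share libraries and, in part, depth. The same Mfn2wt libraries give the level and the reference of the fold change, so noise in them tends to make this correlation negative. Of the genes that did not pass, Ndufa9, Ndufb2, Ndufb3, Ndufb5, Ndufaf1 and Ndufaf6 had standard errors of 0.37 to 0.48, and their libraries differed within each group. Over 9814 genes, the log2 CPM of each gene in a library, less its mean over all 63 libraries, was correlated with GC content. Spearman rho was 0.45, 0.47, 0.10 and 0.20 in Mfn2AA and 0.47, 0.06, 0.38 and 0.47 in Mfn2wt replicates 1 to 4. Ndufa9 was lowest in Mfn2AA replicates 1 and 2 and Mfn2wt replicates 1 and 4, the libraries with the 4 highest of these correlations. The part of base composition in those values was not tested. With each library corrected for GC content, 36 of the 44 genes fell, where 2735 of all 12844 genes tested did. All 35 were among them, and Ndufaf5 was added (edgeR, adjusted p = 0.0324). The fold change of Mfn2AA over Mfn2wt itself went with GC content more at the earlier ages. At 5 weeks Spearman rho was 0.05 over all genes tested and -0.12 over the 44. Those values were 0.40 and 0.46 at P21 and 0.33 and 0.51 at P1. With the correction, 3 of the 44 genes fell at P21, where 665 of all 12761 genes tested did. Of the 2 genes called at P21 without it, 1 was kept. At P1, 1 of the 44 fell, where 9 of all 12810 genes tested did.

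The count at 5 weeks was lower in a pair of alternatives. With limma on log2(FPKM + 1), 15 of the genes fell and 1 rose, against a median over all genes of 0.33, with 4749 genes higher and 820 lower. In the main test those numbers were 2774 and 2483. Without the 5 libraries of lowest depth, 3 of which were Mfn2wt, 22 genes fell, where 1100 of all 14681 genes tested did. That fit holds 1 Mfn2wt library, which is assumed to vary like the other groups.

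Against tet-off hearts (n = 4 and 3), 34 of the 44 fell and 0 rose in Mfn2AA hearts, where 16.1% of all genes tested fell. The same Mfn2AA libraries enter both comparisons. The median was -0.96 (range -1.60 to 0.17), against 0.01 over all genes tested. In 35 of the 44, all Mfn2AA libraries lay below all tet-off libraries, as did 18% of all genes tested. The modules fell in 10 of 10, 5 of 6, 6 of 8 and 8 of 11 genes, in the order used above, with medians of -0.97, -1.03, -0.98 and -0.97. Assembly factors fell in 4 of 7, with a median of -0.73.

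The genes described against Mfn2wt hearts were compared with tet-off hearts in turn. Ndufs6 had 1351, 1158 and 1725 CPM in tet-off hearts, and Mfn2AA hearts differed from them by -1.60 ± 0.23 (adjusted p = 0.000117). Ndufv1 had 787, 831 and 726 CPM in tet-off hearts, a difference of -0.95 ± 0.12 (adjusted p = 2.76e-05). Ndufs1 had 341, 379 and 233 CPM in tet-off hearts (-1.15 ± 0.24, adjusted p = 0.00188). In each case all Mfn2AA libraries were lower. Ndufs4, with 66.8, 94.2 and 44.7 CPM in tet-off hearts, passed as well (-0.90 ± 0.28, adjusted p = 0.022), but tet-off replicate 3 lay below Mfn2AA replicate 3. This call of Ndufs4 was lost in 6 of 16 alternatives. Ndufa5 with 372.0, 391.8 and 378.0 CPM, Ndufa8 with 407, 423 and 422 CPM and Ndufb10 with 611, 646 and 676 CPM in tet-off hearts all stood far above the Mfn2AA libraries. Their log2 fold changes were -1.047, -1.002 and -1.04. Ndufaf4 (27.6, 28.9 and 21.1 CPM in tet-off hearts) changed by -1.02 and Ndufa4 (660, 673 and 497 CPM) by -1.01. Ndufa4l2 had 31.9, 28.0 and 38.6 CPM in tet-off hearts and did not pass (0.17 ± 0.19, adjusted p = 0.51). For Ndufs5 the tet-off libraries had 351, 369 and 272 FPKM, and limma gave -0.56 ± 0.21 at adjusted p = 0.05, just under the threshold before rounding.

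Summed over the 45 genes, Mfn2AA hearts of 5 weeks had 7573 ± 969 CPM (SD, n = 4). Mfn2wt hearts had 14966 ± 1217 CPM (SD, n = 4), tet-off hearts 15272 ± 425 (SD, n = 3) and nontransgenic hearts of the same batch 16732 ± 1219 (SD, n = 4). The highest Mfn2AA library, at 8836 CPM, lay far below the lowest Mfn2wt library, at 14134 CPM. No test was made on the sum.

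**Figure D3:**
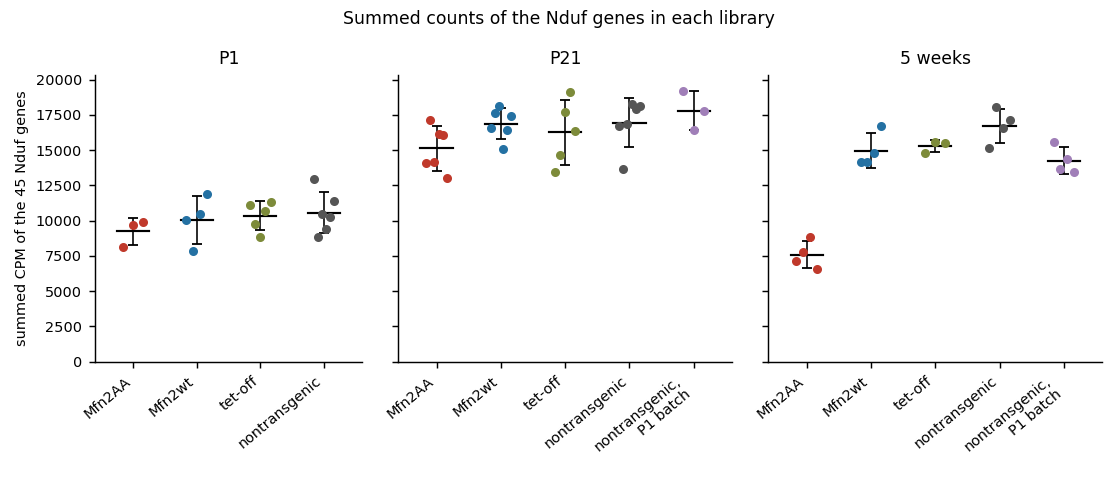
Summed level in CPM of the 45 Nduf genes (y axis, from 0) in each of the 63 libraries by age and genotype, with the mean and SD of each group. At 5 weeks the Mfn2AA libraries (6562 to 8836) lie below all other libraries of that age, while at P1 and P21 the genotypes overlap.

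Marker genes of other cell types moved at the same time. The summed level of 8 ventricular cardiomyocyte markers was 51661 to 66937 CPM in Mfn2AA hearts of 5 weeks, against 106382 to 121119 in Mfn2wt and 102915 to 107870 in tet-off hearts. Of these 8, 6 fell against Mfn2wt, with a median log2 fold change of -0.95, among them Atp2a2, the calcium pump of the sarcoplasmic reticulum (-1.46), Tnni3 (-1.37) and Myh6 (-1.22). Tnnt2, at -0.31, did not pass. Fibroblast markers summed to 11145 to 18217 CPM in Mfn2AA and 1903 to 2914 in Mfn2wt hearts, and 5 of 6 rose, led by Col1a1 (3.00), Col1a2 (2.66) and Col3a1 (2.44). Dcn, at 0.85, did not pass. Macrophage markers summed to 637 to 1848 CPM in Mfn2AA and 369 to 496 in Mfn2wt hearts, and 6 of 6 rose, among them Lyz2 (1.70). Markers of proliferating cells summed to 29.1 to 111 CPM in Mfn2AA and 3.34 to 14.4 in Mfn2wt hearts, and 5 of 5 rose, among them Mki67 (3.02). Atrial markers summed to 7389 to 14618 CPM in Mfn2AA and 1905 to 3638 in Mfn2wt hearts. Nppa rose (2.52) and Bmp10 fell (-5.23), and Myl7 at -2.17 did not pass. Endothelial markers overlapped, at 709 to 1119 CPM in Mfn2AA and 856 to 962 in Mfn2wt hearts, and 1 of 5 passed, Pecam1 (0.40). Adipocyte markers summed to 497 to 614 CPM in Mfn2AA and 396 to 501 in Mfn2wt hearts, and 2 of 6 rose. Of the erythroid markers Hba-a1, Hba-a2, Hbb-b1 and Hbb-b2 were listed at 0. The part of these cell types in the fall of the Nduf genes was not tested.

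Other genes of the pathway fell together with the Nduf genes. Of 9 complex I assembly factors without an Nduf name, 6 fell in Mfn2AA against Mfn2wt hearts and 0 rose (median -0.78). The greatest changes were in Foxred1 (-0.93), Ecsit (-0.90) and Tmem126b (-0.89), and Acad9 did not pass (-0.30, adjusted p = 0.212). All 7 subunits that the mitochondrial genome encodes fell, with a median of -1.77. The greatest changes were in mt-Nd4l (-1.92 ± 0.47), mt-Nd2 (-1.86 ± 0.46) and mt-Nd3 (-1.83 ± 0.48), and their summed level was 5584 to 17165 CPM in Mfn2AA against 16375 to 41034 CPM in Mfn2wt libraries, which overlap. Nuclear subunits of complexes II to V fell in 43 of 48 genes tested, with a median of -0.89, and mitochondrial ribosomal proteins in 51 of 76, with a median of -0.64. The medians of the 44 Nduf genes and of complexes II to V were thus alike.

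Regulators of respiratory chain genes fell in part. Against Mfn2wt hearts, 6 of 12 fell and 0 rose, with a median of -0.62. They were Ppara (-1.24), a nuclear receptor for fatty acids, Esrrg (-1.18), Esrra (-0.96) and Esrrb (-0.78), the estrogen-related receptors that bind the ERR motif, and their coactivators Ppargc1a (-1.06) and Ppargc1b (-0.83). Nrf1 (0.14), Gabpa (-0.35), Gabpb1 (0.30), Yy1 (-0.10), Pprc1 (0.16) and Tfam (-0.47), whose adjusted p ran from 0.088 to 0.622, did not pass. Of the genes whose promoters are printed above, Ndufa8 (NRF1 motif), Ndufb4 (ERR motif) and Ndufs3 (ETS motif) fell by 1.13, 1.15 and 1.07. Ndufs6, with none of them in that stretch, fell by 1.62 and was printed because of that fall. In the whole set 35 of the 44 genes tested fell. Among other genes with these motifs, Ndufa11, Ndufa6 and Ndufaf4 (NRF1) and Ndufb6 and Ndufb7 (ETS) fell. Ndufaf1 (ETS) and Ndufb2 (ERR) did not pass, and Ndufs5 (ERR) had no counts. A link between motif and change was not tested.

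At P21 few genes of the set passed in Mfn2AA hearts. Of the 44 genes, 2 fell and 0 rose against Mfn2wt hearts (n = 6 and 6), where 6.19% of all 13585 genes tested fell. The median was -0.15, against -0.01 over all genes, and 13 genes had an unadjusted p under 0.05. Ndufb3, a subunit of the distal membrane arm, had 119 CPM in the lowest, a median of 128 and 145 CPM in the highest Mfn2AA library. In Mfn2wt libraries those values were 137, 186 and 251 CPM. The groups overlapped only at their edge, and the change was -0.52 ± 0.15 (adjusted p = 0.0189). Ndufa12, of the NADH-oxidising module, had 234, 442 and 578 CPM (lowest, median and highest) in Mfn2AA and 477, 613 and 640 CPM in Mfn2wt libraries, which overlapped more. It changed by -0.46 ± 0.15 (adjusted p = 0.0453) and lost the call in 14 of 19 alternatives, among them the removal of any Mfn2AA library except replicate 2 and of any Mfn2wt library except replicate 4. Ndufb3 lost it in 2 of 19, on FPKM and without Mfn2wt replicate 3. Without Mfn2wt replicate 1 or 4, 4 genes passed. Ndufs4 (-0.40), Ndufa4 (-0.34), Ndufs1 (-0.16), Ndufa4l2 (-0.06) and Ndufv1 (0.08) did not pass. Of the 7 mitochondrially encoded subunits, 6 fell at P21 against Mfn2wt hearts, with a median of -0.85, and 0 passed against tet-off hearts, with a median of -0.25. In the same comparison with Mfn2wt hearts, 5 of 6 macrophage markers rose, with sums of 414 to 782 CPM in Mfn2AA and 328 to 411 CPM in Mfn2wt hearts, and so did 4 of 5 adipocyte and 2 of 7 atrial markers. Ventricular cardiomyocyte markers fell in 2 of 8, with sums of 64818 to 103544 CPM in Mfn2AA and 78326 to 101875 CPM in Mfn2wt hearts, proliferation markers in 2 of 5 and endothelial markers in 1 of 5, while 0 of 6 fibroblast markers passed. Their part in the values of the Nduf genes was not tested.

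Other P21 comparisons gave no call. Against tet-off hearts (n = 6 and 5) edgeR called 0 of 44, with 3 at an unadjusted p under 0.05, and DESeq2 and limma on FPKM each called 0, where 0.574% of all genes passed in either direction. In Mfn2wt against nontransgenic hearts it called 0, with 0 at an unadjusted p under 0.05, and both other tools called 0 (0.604% of all genes). In tet-off against nontransgenic hearts it called 0, with 1 at an unadjusted p under 0.05, and both other tools called 0 (1.63% of all genes). Summed levels were 15118 ± 1586 CPM in Mfn2AA, 16878 ± 1102 in Mfn2wt, 16257 ± 2289 in tet-off and 16934 ± 1733 in nontransgenic hearts (SD, n = 6, 6, 5 and 6).

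At P1, 1 of 44 genes fell and 0 rose in Mfn2AA against Mfn2wt hearts (n = 3 and 4), where 0.0586% of all 13653 genes tested fell. The median was -0.14, against -0.002 over all genes and -0.16 over the 898 genes outside the set with under 1000 exon bases. The part of transcript length was not tested. The gene was Ndufaf5 (chromosome 2, 140170646 to 140205252), with 9.54, 10.4 and 12.7 CPM in Mfn2AA and 17.4, 16.4, 17.2 and 22.3 CPM in Mfn2wt libraries. It had 15.96, 12.02, 12.17, 12.22 and 13.9 CPM in tet-off libraries and 11.1, 11.9 and 15.0 CPM (lowest, median and highest) in the 6 nontransgenic libraries. The Mfn2wt libraries thus lay above all other P1 libraries, while those of Mfn2AA overlapped both controls. The change was -0.77 ± 0.15 (adjusted p = 0.0436) and lost the call in 8 of 14 alternatives, among them the removal of any 1 library of the pair of groups except Mfn2AA replicate 3. Macrod2 lies near it on chromosome 2 (140395430 to 142390050), with 2.28 to 3.15 CPM in Mfn2AA, 22.1 to 31.1 in Mfn2wt and 3.08 to 5.14 in nontransgenic hearts at P1, a log2 fold change of -3.28 ± 0.19 in Mfn2AA over Mfn2wt. For Ndufaf5 the change was -0.14 at P21 and -0.38 at 5 weeks and did not pass there, while Macrod2 fell at both ages, by 2.82 and 2.67. Ndufs4 at -0.60, Ndufa4 at -0.38, Ndufs1 at -0.19, Ndufa4l2 at -0.15 and Ndufv1 at 0.02 did not pass at P1.

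Against tet-off hearts at P1 (n = 3 and 5) all 44 values were negative, with a median of -0.18, but edgeR called 0 of them, with 3 at an unadjusted p under 0.05, and DESeq2 and limma on FPKM called 0. Of all genes, 0.00732% passed in either direction. The median of all genes tested was -0.01, and that of the 898 genes outside the set with under 1000 exon bases was -0.15. Short and long members had medians of -0.20 and -0.15. The part of transcript length in these values was not tested. In Mfn2wt against nontransgenic hearts edgeR called 0, with 2 at an unadjusted p under 0.05, DESeq2 called 1 and limma 0 (0.146% of all genes). In tet-off against nontransgenic hearts edgeR, DESeq2 and limma each called 0, with 0 at an unadjusted p under 0.05 (1.3% of all genes). Summed levels at P1 were 9231 ± 978 CPM in Mfn2AA, 10056 ± 1690 in Mfn2wt, 10343 ± 1016 in tet-off and 10549.2 ± 1456 in nontransgenic hearts (SD, n = 3, 4, 5 and 6).

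At 5 weeks Mfn2wt and tet-off hearts were each compared with nontransgenic hearts. In Mfn2wt against nontransgenic hearts edgeR called 0 of 44, with 6 at an unadjusted p under 0.05, and DESeq2 and limma called 0 (0.388% of all genes). The median was -0.14, and 43 of the 44 values were negative. In tet-off against nontransgenic hearts edgeR called 0, with 1 at an unadjusted p under 0.05, and both other tools called 0 (0.117% of all genes), with a median of -0.16. These tests do not show that the groups were equal.

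Whether the difference between Mfn2AA and Mfn2wt changed between ages was tested directly. Each age stands in its own library batch there, so a change with age and a batch effect that differs between the genotypes cannot be told apart. From P21 to 5 weeks it became more negative in 31 of 44 genes, where it did so in 18.3% of all 14610 genes tested. It became more positive in 1, where it did so in 17.8% of all genes. The median of this change was -0.77, and that of all genes was 0.01. The NADH-oxidising module counted 9 of 10 such genes, the ubiquinone-reducing module 5 of 6, the proximal arm 8 of 8, the distal arm 8 of 11 and the assembly factors 1 of 7. Among those of the proximal arm, Ndufc1 lost the call in 17 of 24 alternatives. The gene with the smallest adjusted p was Ndufb10, at -1.004 ± 0.15 (adjusted p = 3.63e-07). Ndufa8 changed by -1.12 ± 0.17, Ndufs7 by -1.07 ± 0.16 and Ndufv1 by -0.87 ± 0.17. The single positive change was in Ndufa4l2, 0.43 ± 0.17 (adjusted p = 0.0413), which lost the call in 8 of 24 alternatives, each the removal of 1 library (at P21 Mfn2AA replicates 4 and 6 and Mfn2wt replicates 1, 2 and 6, at 5 weeks Mfn2AA replicate 1 and Mfn2wt replicates 2 and 3). From P1 to P21 the same test called 0 of 44 with edgeR, with 1 at an unadjusted p under 0.05, and 0 with DESeq2, where 0.308% of all genes passed in either direction.

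With age, the set rose in nontransgenic hearts between P1 and P21 (3 P21 and 6 P1 libraries of 1 batch). The tissue label changes between these ages too, from whole heart to left ventricle. Age and labelled tissue therefore cannot be told apart in this comparison. At P21, 38 of 44 genes were higher than at P1 and 0 lower, where 29% of all 13534 genes tested were higher. All 44 values were positive, with a median of 0.65 (range 0.14 to 1.43), against -0.02 over all genes. In 31 of the 44, all P21 libraries lay above all P1 libraries, as did 26% of all genes tested. The NADH-oxidising module rose in 10 of 10 genes, the ubiquinone-reducing module in 6 of 6, the proximal arm in 6 of 8, the distal arm in 10 of 11 and the assembly factors in 4 of 7. Their medians were 0.67, 0.69, 0.64, 0.73 and 0.44. Ndufa4 and Ndufa4l2 rose as well.

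**Figure D4:**
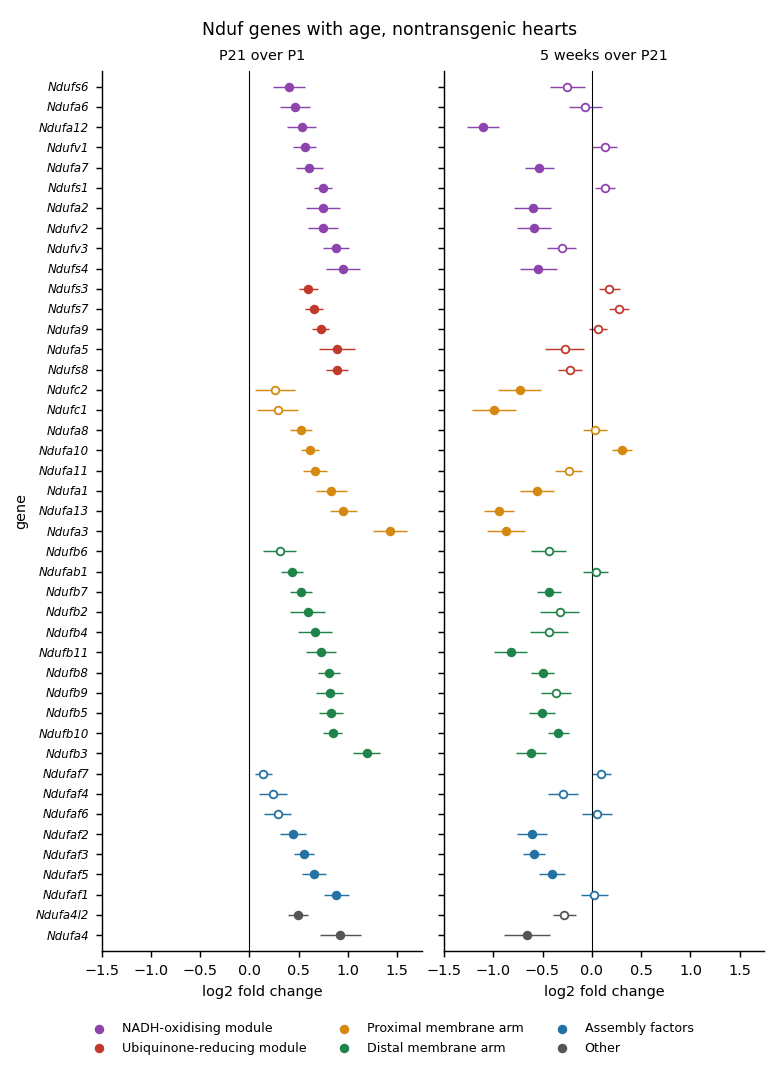
Log2 fold change (x axis, bars are standard errors) of 43 of the 44 Nduf genes tested in nontransgenic hearts of the P1 batch, P21 over P1 and 5 weeks over P21. Filled points passed an adjusted p of 0.05: of those drawn, 37 genes were higher at P21 than at P1, and 1 was higher and 20 lower at 5 weeks than at P21.

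The greatest rise was that of Ndufa3, which had 246, 301 and 472 CPM (lowest, median and highest) in the 6 P1 libraries, 993, 840 and 856 CPM at P21 and 583, 430, 478 and 467 CPM at 5 weeks. P21 stood above the other ages, and 5 weeks overlapped the upper P1 libraries. Its change from P1 to P21 was 1.43 ± 0.18 (adjusted p = 1.83e-06) and from P21 to 5 weeks -0.87 ± 0.20 (adjusted p = 0.00474). Ndufs1 had 246, 270 and 314 CPM at P1, 426, 499 and 462 CPM at P21 and 537, 497, 489 and 500 CPM at 5 weeks. It rose by 0.74 ± 0.09 (adjusted p = 1.88e-06) between P1 and P21, and the later step did not pass (0.13). Ndufa9, with 210, 225 and 246 CPM at P1, 386, 364 and 387 CPM at P21 and 430, 402, 388 and 363 CPM at 5 weeks, had the smallest adjusted p of the set for P21 over P1, 6.66e-07, at 0.72 ± 0.08. Its libraries lay close together within each age in this batch.

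Ndufb10 had 331, 383 and 411 CPM at P1, 682, 680 and 703 CPM at P21 and 572, 507, 596 and 497 CPM at 5 weeks, and was 0.84 ± 0.10 higher at P21 than at P1 (adjusted p = 7.68e-07). It lay highest at P21 without overlap. Ndufaf1, an early assembly factor, had 8.89, 10.3 and 14.3 CPM at P1, 19.4, 20.1 and 20.9 CPM at P21 and 22.4, 17.8, 22.9 and 18.6 CPM at 5 weeks, and rose by 0.88 ± 0.13 from P1 to P21 (adjusted p = 1.25e-05). Ndufa4l2 had 15.5, 16.9 and 19.8 CPM at P1, 24.7, 23.6 and 25.3 CPM at P21 and 22.8, 19.6, 21.7 and 16.1 CPM at 5 weeks. Its rise between P1 and P21 was 0.49 ± 0.11 (adjusted p = 0.000642). Ndufs4 rose by 0.95, Ndufa4 by 0.92 and Ndufv1 by 0.56. Ndufb6 (0.30), Ndufc2 (0.26), Ndufc1 (0.28), Ndufaf6 (0.28), Ndufaf4 (0.24) and Ndufaf7 (0.14) did not pass. Ndufs5 had 269, 346 and 502 FPKM (lowest, median and highest) at P1, 553, 481 and 424 FPKM at P21 and 432, 415, 418 and 403 FPKM at 5 weeks. Its change of 0.44 between P1 and P21 passed in limma on FPKM (adjusted p = 0.0262), although the groups overlapped.

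Between P21 and 5 weeks the set fell in part. Of the 44 genes, 20 were lower at 5 weeks (10.8% of all genes tested were) and 2 higher (11.6% of all genes). The median was -0.35 (range -1.11 to 0.44), against -0.03 over all genes. The distal arm fell in 6 of 11 genes, the proximal arm in 5 of 8, the NADH-oxidising module in 5 of 10 and the assembly factors in 3 of 7. In the ubiquinone-reducing module 0 fell, with a median of 0.12. Ndufa10 rose in the proximal arm, with 529, 516, 501 and 482 CPM at 5 weeks and 355, 453 and 427 CPM at P21 (0.31 ± 0.10, adjusted p = 0.0434). The greatest fall was that of Ndufa12, with 280, 259, 280 and 254 CPM at 5 weeks against 623, 485 and 629 CPM at P21 (-1.11 ± 0.16, adjusted p = 0.000218). Ndufc1 (-0.99), Ndufa13 (-0.94), Ndufa3 (-0.87) and Ndufb11 (-0.82) followed, and Ndufaf3 changed by -0.59 and Ndufa4 by -0.66. The calls of Ndufa10 and Ndufa4 were lost in 9 and 11 of 15 alternatives.

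Transcript length went with this later change. Of the 44 genes, 27 have under 1000 exon bases, and their median from P21 to 5 weeks was -0.44, with 15 lower and 0 higher. The 17 longer ones had a median of -0.22, with 5 lower and 2 higher. Among the other genes tested, the 879 with under 1000 bases had a median of -0.31 and the longer ones -0.01. Members of the 2 length classes were closer in 2 other comparisons: from P1 to P21 the short members had a median of 0.61 and the long ones 0.66, with -0.02 in short genes outside the set. In Mfn2AA over Mfn2wt hearts at 5 weeks those medians were -0.93, -0.81 and -0.16. The part of transcript length in these values was not tested. The count of this later change moved when 1 library was removed. With P21 replicate 1 of the P1 batch left out 9 genes passed, and with 5-week replicate 2 left out 12.

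The same RNA prepared in 2 batches shows how far the library batch alone moves these genes. For 3 P21 hearts, 15 of 44 genes differed between the P1 batch and their own batch (14 higher and 1 lower in the P1 batch), where 13.6% of all genes tested did so. For 3 hearts of 5 weeks, 15 of 44 differed (5 higher and 10 lower), where 11.3% of all genes did. Ndufa12 of the 5-week hearts had 280, 259 and 254 CPM in the P1 batch and 738, 889 and 1028 CPM in their own batch, a difference of -1.72 ± 0.15 (adjusted p = 0.00199). Ndufs6 of the same hearts had 737, 596 and 565 CPM in the P1 batch and 1667, 1132 and 1830 CPM in their own, a difference of -1.25 ± 0.16 (adjusted p = 0.0119). Ndufc1 differed by -1.37. Ndufaf1 differed the other way, by 1.25, and Ndufs1 by 0.76. In the P21 hearts Ndufb3 had 329, 315 and 298 CPM in the P1 batch and 164, 124 and 174 CPM in their own batch, a difference of 1.052. Transcript length went with the batch difference of the 5-week hearts too. The 27 members under 1000 exon bases had a median of -0.32, with 9 lower and 1 higher in the P1 batch. The 17 longer ones had a median of 0.09, with 1 lower and 4 higher, and short genes outside the set -0.14. For the P21 hearts the medians of short and long members were 0.14 and 0.22. Over all genes tested, the difference between batches correlated with GC content at -0.63 for the P21 hearts and -0.63 for the 5-week hearts (Spearman rho). Each comparison of 2 genotypes at 1 age lies within 1 batch, while the tests of a change in the genotype difference between ages span 2 batches.

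**Figure D5:**
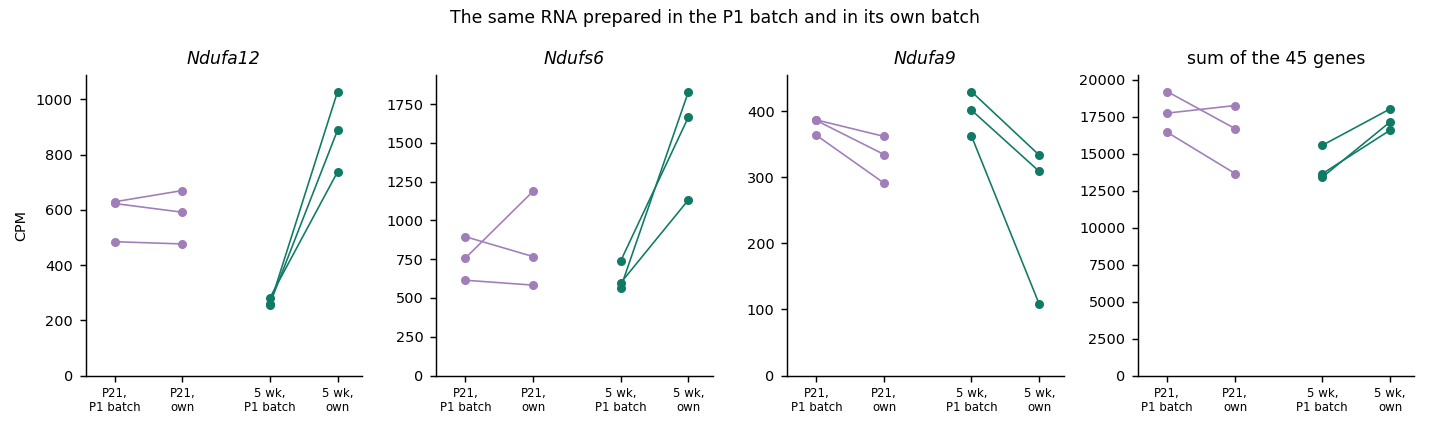
Levels in CPM (y axes, from 0) of 3 Nduf genes and of the sum of the 45, in libraries of the same RNA joined by a line, prepared in the P1 batch and in the batch of their own age (3 hearts of P21 and 3 of 5 weeks). Ndufa12 and Ndufs6 of 5-week hearts are lower in the P1 batch and Ndufa9 is higher there.

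The batch difference bears on the step from P21 to 5 weeks. With each age taken from its own batch, 4 of 44 genes were higher and 6 lower at 5 weeks, with a median of -0.07, where 2231 of all 13529 genes tested were higher and 1809 lower. Of the 22 genes called in the P1 batch, 4 passed in the same direction and 8 had the opposite sign, Ndufa12 at 0.59 among them. The summed levels were 14257 ± 971 CPM at 5 weeks and 17805 ± 1376 at P21 in the P1 batch (SD, n = 4 and 3), against 16732 ± 1219 at 5 weeks and 16934 ± 1733 at P21 in their own batches (SD, n = 4 and 6). At P1 the sum was 10549.2 ± 1456.

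Cell type markers moved with age too. Ventricular cardiomyocyte markers summed to 78282 to 98134 CPM at P21 and 52659 to 70380 CPM at P1 in the P1 batch, and 5 of 8 rose. Proliferation markers summed to 28.2 to 64.7 CPM at P21 and 201 to 288 CPM at P1, and 5 of 5 fell. Macrophage markers rose in 6 of 6, with sums of 295 to 420 CPM at P21 and 69.7 to 84.8 CPM at P1. Fibroblast markers rose in 4 of 6 and fell in 1, endothelial markers rose in 3 of 5, atrial markers in 3 of 7 and adipocyte markers in 2 of 6. Adipoq, Retn and Lep, markers of adipocytes, were at 0 in the nontransgenic P1 libraries. At 5 weeks against P21 in the same batch, fibroblast markers summed to 1765 to 2372 CPM at 5 weeks and 3776 to 4001 CPM at P21, and 4 of 6 fell. Proliferation markers fell in 5 of 5, atrial markers in 5 of 7 and macrophage markers in 2 of 6, while adipocyte markers rose in 4 of 6 and ventricular cardiomyocyte markers in 2 of 8. The part of these cell types in the changes of the Nduf genes was not tested.

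Other pathway genes moved less uniformly with age. At P21 against P1, 5 of 9 complex I assembly factors without an Nduf name rose and 0 fell, as did 4 of 7 mitochondrially encoded subunits. Nuclear subunits of complexes II to V rose in 31 of 48 and fell in 3, with a median of 0.50, and mitochondrial ribosomal proteins rose in 40 of 76 and fell in 5, with a median of 0.30. Of the 12 regulators, Ppara (0.63) and Tfam (0.35) rose, and Ppargc1b (-0.52), Pprc1 (-0.39) and Nrf1 (-0.31) fell, where 3931 of all 13534 genes tested rose and 3863 fell. At 5 weeks against P21, Esrrb (1.07), Esrrg (0.74) and Ppara (0.68) rose and 0 fell, while 11 of 48 genes of complexes II to V fell. Across the 44 Nduf genes, the change from P1 to P21 in nontransgenic hearts and the log2 fold change of Mfn2AA over Mfn2wt at 5 weeks, which share no library, were weakly and negatively related (Pearson r = -0.26, Spearman rho = -0.32), and more weakly among the 36 subunits (-0.17 and -0.27).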

How the data were processed

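RNA of mouse hearts was sequenced as polyadenylated, non-stranded single-end libraries, per the labels. The submitters' processing notes name build mm10, TopHat2 2.0.10, Bowtie2, HTSeq and Cufflinks 2.1, among others. The authors deposited a table of raw read counts, not normalized, and a table of FPKM. The deposited annotation gives base positions of exons (other unit). Groups follow the labels. Titles give each library of a group its own number, taken here as that of an animal, and p-values measure the spread between these samples. The part of it before the hyphen, the title number, is shared by several libraries, and the labels do not give its meaning. Mfn2AA and Mfn2wt hearts shared no title number at any age, while Mfn2AA and tet-off hearts shared some. In Mfn2AA against Mfn2wt, genotype and whatever the title number stands for therefore cannot be told apart. Nontransgenic libraries of different ages shared no title number either, and the P21 libraries of the P1 batch all carried the same one. Age and whatever the title number stands for cannot be told apart in the comparisons of ages.

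Genes were tested with edgeR 4.0.16 in R 4.3.3 (TMM scaling, filterByExpr, quasi-likelihood F test), in 1 fit per age of its 4 genotype groups, 1 of the 13 nontransgenic libraries of the P1 batch, 1 of the 56 other libraries for changes with age, and fits of the same RNA with the heart as a block. All 18 comparisons were adjusted over all genes tested (Benjamini-Hochberg), and an adjusted p under 0.05 was called. CPM are counts scaled by TMM over all 63 libraries. The script was tested on simulated data. The members and lists were chosen with earlier results of these data known. Genes with a value per library were the called gene of smallest adjusted p in each role group, Ndufs1, Ndufv1, Ndufs4, Ndufa4 and Ndufa4l2, every gene where at most 5 were called, and extremes. From other lists up to 3 called genes and 1 uncalled were named. Beyond this rule, further members and regulators were named after their values were seen.

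The alternatives tried were other scaling (RLE), no filter on low counts, DESeq2 1.42.0 and limma 3.58.1 on log2(FPKM + 1) with a mean FPKM of at least 1 in a group, then 2 groups alone, Rn45s left out, the title number as a block, each age in its own batch and each library left out. A correction for GC content (lowess, span 0.3) and, at 5 weeks, leaving out the 5 shallowest libraries were added after the data were seen. Figures used matplotlib 3.10.9. The values of 1 member are not reported here, while counts, medians and sums over the set include it.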

Additional observations from a re-analysis of the deposited data

Results flagged for a closer look

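A library far from the others of its group was found in 7 of 231 groups of libraries tested, over 20 genes and their sum, and chance alone gives about 1 in 20. Ndufa13 had 550.9 CPM in Mfn2wt replicate 4 at 5 weeks, while the others had 424 to 441. Ndufv2 had 514 CPM in nontransgenic replicate 2 at 5 weeks (others 432 to 444). At P1, Ndufa8 had 192 CPM in Mfn2wt replicate 2 (others 270 to 277) and Ndufaf5 22.3 CPM in Mfn2wt replicate 4 (others 16.4 to 17.4). At P21, Ndufs1 had 361 CPM in nontransgenic replicate 1 (others 406 to 430). Nontransgenic replicate 2 at P21 had 29.1 CPM of Ndufaf3 (others 39.2 to 43.3) and a sum over all members of 13664 CPM (others 16706 to 18264).

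The difference of Mfn2AA minus Mfn2wt hearts changed between P21 and 5 weeks, which are also 2 library batches, by an interaction test in edgeR, in these genes shown with a value per library. It became more positive in Ndufa4l2, by 0.43 (log2, SE 0.17, adjusted p = 0.0413). It became more negative in Ndufb10 (-1.004, adjusted p = 3.63e-07), Ndufa8 (-1.12, adjusted p = 7.83e-07), Ndufs7 (-1.07, adjusted p = 9.01e-07) and Ndufv1 (-0.87, adjusted p = 3.71e-05). The same held for Ndufaf4 (-0.81, adjusted p = 0.00033), Ndufa5 (-0.92, adjusted p = 0.000898), Ndufs1 (-0.79, adjusted p = 0.00103), Ndufv2 (-0.70, adjusted p = 0.00766) and Ndufs4 (-0.81, adjusted p = 0.0282). The call of Ndufs4 was lost in 5 of 24 alternatives.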

How the results depend on the processing

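Counts of Nduf genes called at 5 weeks kept within 1.5 times of 35 against Mfn2wt and of 34 against tet-off hearts under RLE scaling, no filter, DESeq2, Rn45s left out, 2 groups alone and the correction for GC content, and the exceptions against Mfn2wt were limma on FPKM (16) and leaving out the 5 shallowest libraries (22). Leaving out 1 library gave 33 to 37 in both. With the title number as a replicate block, whose meaning the labels do not give, 32 were called against tet-off hearts, and 0 in the P1 and P21 comparisons that allow it. For Mfn2AA against tet-off hearts at P21, only 1 tet-off library shared a title number with the Mfn2AA libraries. For Mfn2wt against nontransgenic hearts at P1, only 1 nontransgenic library did so with Mfn2wt. These blocked comparisons rest on that 1 library, so their 0 calls cannot decide whether the genes differ. In Mfn2AA against Mfn2wt hearts at P1, limma on FPKM and the 2 groups alone called 0, and leaving out 1 library gave 0 to 1. At P21 no filter gave 1, limma on FPKM 0 and leaving out 1 library 0 to 4. Leaving out 1 library gave 0 to 1 in Mfn2AA against tet-off hearts at P21 and in Mfn2wt against nontransgenic hearts at P1, where DESeq2 called 1. From P1 to P21, leaving out 1 library gave 34 to 41, and for the change of the genotype difference between P21 and 5 weeks 29 to 34. For the same RNA, DESeq2 called 8 genes at P21, and no filter gave 23 at 5 weeks. From P21 to 5 weeks, leaving out 1 library gave 9 to 22, and each age in its own batch gave 10, with the sign turned in Ndufa1 (0.078), Ndufa10 (-0.021), Ndufa12 (0.59), Ndufa2 (0.015), Ndufaf2 (0.38), Ndufaf3 (0.030), Ndufb7 (0.16) and Ndufc1 (0.26). The causes were not tested.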
